A study of Rattus norvegicus with 29 samples.

Results

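The data describe what 7 daily oral doses of 2000 mg/kg PMCol did to liver transcripts of male rats killed on day 8. PMCol is 2,2,5,7,8-pentamethyl-6-chromanol, the chromanol ring of vitamin E without its long side chain. The members were chosen by their titles: 6 treated animals and 6 vehicle animals of day 8, 12 of the 29 animals in the series. All were male Crl:CD Sprague-Dawley rats of 6 to 7 weeks of age, dosed once daily by gavage, and the vehicle animals received 1% methylcellulose in water. Each animal gave 1 whole-transcript array of RNA from the left liver lobe, a tissue mixture of hepatocytes and other liver cells (biological replicates, per the labels). A day 29 comparison of the same dose (5 treated and 6 vehicle animals, 28 daily doses) is used below to test the effects of both days against each other. Its calls and medians are also given in places beside those of day 8, which is not a test of their difference. The vehicle animals of day 29 also serve to show where the day 8 vehicle animals stand. The lower dose of 200 mg/kg was not compared with any group here, but its 6 animals of day 29 were among the 29 used for centring and for the estimate of spread.

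The liver clears foreign compounds in steps. Cytochrome P450 enzymes, reductases and esterases change the molecule, transferases attach glutathione, glucuronic acid or sulfate, and ABC pumps move the conjugates into bile or blood. The receptors CAR and PXR raise Cyp2b, Cyp3a and carboxylesterase genes, whereas the factor NRF2, freed from its inhibitor KEAP1 by electrophiles, raises glutathione and quinone-reducing genes. In male rats, pulses of growth hormone acting through STAT5 keep a set of hepatocyte genes at their male level.

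The values are log2 signals centred on the median of the 29 arrays for each transcript cluster, the array's unit of a gene, so 0 is a gene's middle value and no level can be compared between genes. A change below is the difference of the treated and vehicle group means (n = 6 and 6) on that log2 scale, given with its standard error. That error rests on limma's moderated spread, pooled over the 5 groups of all 29 animals, and not on the spread of the 12 animals compared alone. A gene is said to have risen or fallen where limma's Benjamini-Hochberg adjusted p over 27342 clusters was under 0.05. Of 14324 genes with 1 symbol, 1661 rose (11.6%) and 1686 fell (11.8%), 23.4% in all, and the median change over these genes was -0.0057. For 7.95% of genes every treated animal lay above every vehicle animal, and for 6.76% every treated animal lay below, 14.7% in all. Over all 27342 clusters, named or not, 5096 were called at day 8 (18.6%), 212 differed in effect between day 8 and day 29 (0.775%) and 746 differed between the vehicle groups of both days (2.73%). Changes of at least 2-fold were seen in 79 rises and 78 falls, 157 genes in all, and in 148 of those the groups did not overlap. The first principal component of the 12 arrays held 51.8% of the variance and placed the treated animals between 15.7 and 25.2 and the vehicle animals between -21.5 and -18.8. Over the 157 genes, the median shift of an animal in the gene's direction ran from 1.18 in treated replicate 2 to 1.52 in treated replicate 4. These genes were chosen for a large change in the same animals. The size of the shift and the lack of overlap therefore follow in part from that choice, and only the differences between animals are described. Array medians ran from -0.023 to 0.029. Gene lists are described below by their counts beside these shares, and members of a list can share probes or regulation. Some genes belong to several lists, so the counts of different lists are not independent. Where a list is given with 0 rises or 0 falls, at most 2 of its members passed an unadjusted limma p under 0.05 in that direction, and in 17 of 22 such cases none did. List counts of up to 5 can move by more than 1.5 times when 1 animal is left out, and 3 larger counts that did so are named.

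Markers of hepatocytes checked the tissue label. Of 11 measured hepatocyte markers, Ttr and Tf among them, 11 had stored log2 signals of 8 or more in all animals, as far as the rounding of the values shows, against 5354 of 14324 genes, and 39.0% of those 5354 genes were called. At day 8, 7 of the 11 fell and 0 rose, with a median change of -0.16, the largest being Cps1 of the urea cycle at -0.29 ± 0.06.

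Promoter sequences of 4 genes named below are shown first, each of which holds a match of the motif marked. They do not stand for the other large changes, most of which held no match. Windows from 250 bases before to 50 bases after the gene start came from RefSeq (assembly GRCr8), and the 250 bases before the start are printed 5′ to 3′ on the gene's strand. Capitals mark the core of the antioxidant response element that NRF2 binds, TGACNNNGC, in the glutathione transferases Gsta3 (chr9:31154739-31154988, plus strand) and Gstp1 (chr1:210769706-210769955, minus strand) and in malic enzyme Me1 (chr8:96540245-96540494, minus strand). In Cish (chr8:116850719-116850968, plus strand), an inhibitor of cytokine signalling, capitals mark the STAT5 motif TTCNNNGAA.
Gsta3: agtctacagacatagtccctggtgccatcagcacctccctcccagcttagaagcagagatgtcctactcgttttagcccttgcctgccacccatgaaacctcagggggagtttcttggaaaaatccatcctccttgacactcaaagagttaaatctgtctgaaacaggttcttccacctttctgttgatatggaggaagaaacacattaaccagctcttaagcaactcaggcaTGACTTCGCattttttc
Gstp1: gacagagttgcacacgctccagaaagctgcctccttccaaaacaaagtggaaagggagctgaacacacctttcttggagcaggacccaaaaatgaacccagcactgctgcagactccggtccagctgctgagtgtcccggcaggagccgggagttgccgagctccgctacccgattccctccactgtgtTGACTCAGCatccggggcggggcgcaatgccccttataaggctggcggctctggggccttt
Me1: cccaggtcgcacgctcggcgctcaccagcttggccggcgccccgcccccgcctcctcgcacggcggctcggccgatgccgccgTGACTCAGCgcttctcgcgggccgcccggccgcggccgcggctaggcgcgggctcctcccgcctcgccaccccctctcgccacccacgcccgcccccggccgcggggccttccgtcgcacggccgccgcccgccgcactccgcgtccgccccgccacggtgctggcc
Cish: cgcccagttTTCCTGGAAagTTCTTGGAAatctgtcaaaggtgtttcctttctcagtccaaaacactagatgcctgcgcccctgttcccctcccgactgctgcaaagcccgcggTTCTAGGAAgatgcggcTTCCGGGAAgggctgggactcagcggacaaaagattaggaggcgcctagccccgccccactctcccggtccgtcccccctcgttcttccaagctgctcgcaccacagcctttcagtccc
Gsta3 has more than 1 window in the table, and the window with the match is shown. Matches begin 17 bases before the start in Gsta3, 61 in Gstp1 and 167 in Me1, and at 241, 230, 136 and 119 bases in Cish. Both strands were searched, TTCNNNGAA is its own reverse complement, and the matches in Gstp1 and Me1 also hold the letters of the AP-1 motif TGACTCA. The NRF2 core occurred in 12.1% of 33469 windows. Among 2-fold genes with a window it occurred in 21.9% of 64 that rose and in 9.84% of 61 that fell, against 14.2% of 11823 measured genes. The STAT5 motif occurred in 8.87% of windows, in 8.2% of the falls, 10.9% of the rises and 7.85% of measured genes. The Gsta3 window printed also holds 1 match of the STAT5 motif, in lower case, 139 bases before the start, so that motif is not particular to Cish among these sequences. A match describes letters in a window and was not tested as a binding site.

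The largest rises were those of fatty acid and xenobiotic enzymes. Acot1, a cytosolic acyl-CoA thioesterase, had lowest, median and highest signals of 4.01, 4.91 and 5.61 in treated livers and -0.42, 0.11 and 0.74 in vehicle livers. The groups lay far apart, and the change was 4.85 ± 0.34, a fold of 28.8 (adjusted p = 3.33e-11), which was 3.21 after quantile normalization of the arrays. Akr1b8, a reductase of aldehydes, read 3.12, 4.01 and 4.90 in treated and -0.45, -0.26 and -0.07 in vehicle livers, a change of 4.26 ± 0.22 and a fold of 19.2. Abcc3, a pump for conjugates on the blood side of the hepatocyte, read 1.35, 1.48 and 1.57 against -2.51, -2.11 and -1.75, a fold of 11.7. Gsta3 read 1.47, 1.60 and 1.68 against -2.30, -1.81 and -1.43, a fold of 10.6. The carboxylesterase Ces2c, which hydrolyses esters, read 1.13, 1.36 and 1.45 against -2.25, -1.84 and -1.45. All treated animals were above all vehicle animals in each of these genes, as their place among the largest rises required.

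Several large rises were in genes outside drug clearance. Snx10, a sorting nexin of the endosome, had a change of 2.78 ± 0.20 with treated livers at 2.12, 2.55 and 2.67 and vehicle livers at -0.66, -0.35 and 0.24. Coro6, a coronin of the actin cytoskeleton, had 2.70 ± 0.12, Csmd1, a large membrane protein with complement control domains, 2.35 ± 0.13, and Adgrg2, an adhesion receptor, 2.1 ± 0.20. Aqp7, a glycerol channel, read 1.65, 2.13 and 2.82 in treated and -0.51, -0.24 and 0.49 in vehicle livers (2.33 ± 0.23). Derl3, which helps remove misfolded proteins from the endoplasmic reticulum, rose by 1.93 ± 0.13, and Cryl1, a crystallin related to hydroxyacyl dehydrogenases, by 1.90 ± 0.16.

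The largest fall was that of Dhrs7l1, which belongs to the short-chain dehydrogenases. Its signals were -6.20, -4.60 and -4.24 in treated and -0.44, 0.13 and 0.50 in vehicle livers, a change of -5.01 ± 0.31 (adjusted p = 1.89e-12), that is a treated signal 32.3-fold lower. Car3, carbonic anhydrase III, read -4.04, -3.22 and -1.38 in treated and -0.15, 0.27 and 0.60 in vehicle livers. Acnat2, an acyl-CoA amino acid N-acyltransferase, read -3.53, -3.21 and -2.09 against -0.21, 0.13 and 0.27. Treated replicate 2 was the highest treated animal in Nox4, a NADPH oxidase, where the treated livers read -2.96, -2.89 and -1.91 and the vehicle livers -0.48, 0.15 and 0.22. The change of Nox4 was -2.72 ± 0.21, or -1.78 after quantile normalization. Aox3, an aldehyde oxidase, fell by 2.80 ± 0.27 and Hao2, a peroxisomal hydroxyacid oxidase, by 1.89 ± 0.11. Stac3, known from muscle excitation, fell by 2.43 ± 0.36, with a value of -1.56 after quantile normalization. Nrep, a neuronal regeneration protein, fell by 2.17 ± 0.23, and Notum, a Wnt-inactivating carboxylesterase, fell by 1.72 ± 0.14. Rgn, regucalcin, fell by 1.46 ± 0.16 and Dab1 by 1.38 ± 0.16.

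**Figure D1:**
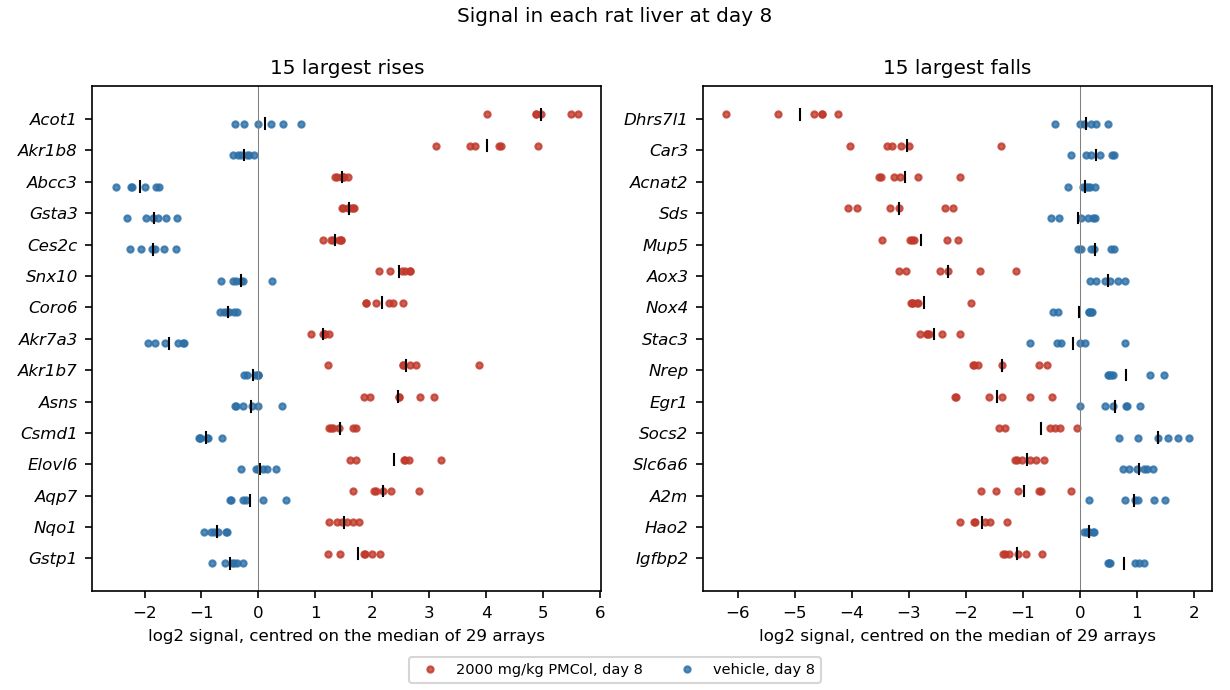
Centred log2 signal (x axis) of each treated (red) and vehicle (blue) liver of day 8 for the 15 largest rises and the 15 largest falls (y axis), with the group mean as a black bar. Within each gene the 6 red points lie on one side of the 6 blue points, because only genes without overlap were ranked. Acot1 and Dhrs7l1 show the largest changes at 4.85 and -5.01.

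Cytochrome P450 genes moved in both directions. Of 50 measured members of families 1 to 4, 11 rose, 18 fell and 21 did not pass, with a median change of -0.12. All 11 that rose did so without overlap. Of the 11 rises 5 were in the Cyp2b subfamily, which has 6 measured members: Cyp2b2 read 0.23, 0.51 and 0.58 in treated and -2.12, -1.32 and -1.02 in vehicle livers (1.91 ± 0.15), Cyp2b1 rose by 1.68 ± 0.17, and Cyp2b3 fell by 0.62 ± 0.15. Cyp1a1, the target of the aryl hydrocarbon receptor, read 0.00, 0.18 and 1.78 in treated and -1.12, -0.90 and -0.69 in vehicle livers. Its treated animals were the more scattered group, and the change was 1.40 ± 0.38 (adjusted p = 0.00804). Cyp1a2 fell by 0.35 ± 0.08. Cyp3a23-3a1 was the member of 4 in Cyp3a that rose, by 0.79 ± 0.08, while Cyp3a9 fell by 1.15 ± 0.27 and Cyp3a18 by 0.43 ± 0.11. In the Cyp2d subfamily 4 of 5 fell, with Cyp2d4 at -0.61 ± 0.13 and Cyp2d1 at -0.56 ± 0.08. The epoxygenase Cyp2j4 rose by 0.95 ± 0.10 and the fatty acid hydroxylase Cyp4a8 by 0.65 ± 0.16. Of 16 genes in other P450 families 2 rose and 3 fell, among them Cyp26a1, which degrades retinoic acid, at 0.84 ± 0.16 and the sterol 27-hydroxylase Cyp27a1 at -0.41 ± 0.07.

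Other oxidising and reducing families split by subfamily as well. Of 16 aldo-keto reductases 8 rose and 4 fell. In Akr1b, 3 of 4 members rose, and Akr1b7 read 1.23, 2.60 and 3.87 in treated and -0.25, -0.04 and 0.00 in vehicle livers, with a wider spread among treated than among vehicle animals. Both Akr7a members rose, Akr7a3, which reduces aflatoxin dialdehyde, by 2.70 ± 0.13 and Akr7a2 by 0.26 ± 0.06. Of 7 Akr1c members 4 fell and 1 rose, with Akr1c2 at -1.15 ± 0.20 and Akr1c19 at -0.67 ± 0.12. Among 14 aldehyde dehydrogenases 3 rose and 3 fell. Aldh1a1, which makes retinoic acid, read 0.58, 0.72 and 0.85 in treated and -1.14, -0.64 and -0.48 in vehicle livers, and Aldh2, of acetaldehyde removal, fell by 0.36 ± 0.05. Fmo1, a flavin monooxygenase, was the member of 5 that fell, by 0.98 ± 0.13. All 4 Ces2 carboxylesterases rose, from 0.47 ± 0.09 in Ces2g to 1.61 ± 0.07 in Ces2a and the value of Ces2c above, whereas 0 of 4 Ces1 genes passed. Probes of close paralogs in the Cyp2b, Akr1b, Akr1c, Ces2 and similar clusters can bind each other's transcripts, which makes single values in these families uncertain.

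Conjugating enzymes rose mainly in the glutathione and glucuronide families. Of 19 glutathione transferases 13 rose and 0 fell, 12 of them without overlap, with a median of 0.37. Gstp1 read 1.22, 1.86 and 2.14 in treated and -0.82, -0.45 and -0.28 in vehicle livers, a change of 2.24 ± 0.15. The rises covered the 3 Gsta genes, 5 of 8 Gstm genes and the microsomal Mgst2 at 1.04 ± 0.12, and Gstt1 rose by 0.92 ± 0.07. Of 6 glucuronosyltransferases with a symbol of their own 4 rose and 0 fell. Ugt2b1 read 0.43, 0.47 and 0.63 against -1.57, -1.39 and -0.95, and Ugt2a3 rose by 1.00 ± 0.17. Of 9 sulfotransferases 2 rose and 3 fell, with the bile acid and steroid enzyme Sult2a1 at -1.21 ± 0.26, Sult1c3 at -0.89 ± 0.12 and the phenol enzyme Sult1a1 at -0.49 ± 0.08. Of 7 acyl and acetyl transferases 4 fell and 1 rose. Baat, which joins bile acids to glycine or taurine, fell by 0.41 ± 0.06, and Glyatl2 rose by 0.58 ± 0.07.

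Transport genes changed among efflux pumps and uptake carriers. Of 41 ABC transporters 12 rose and 7 fell, with a median of 0.05, and of 38 organic anion and cation uptake carriers 0 rose and 9 fell, 8 of them without overlap, a share called of 23.7% beside 23.4% over all genes. Abcc4, another conjugate pump of the blood side, read 1.12, 1.44 and 1.78 in treated and -0.51, -0.29 and -0.19 in vehicle livers. The change was 1.75 ± 0.11, and 2 other Abcc4 clusters rose by 1.74 ± 0.10 and 0.78 ± 0.10. Abcb1b and Abcb1a, the drug pumps of the bile side, rose by 0.99 ± 0.23 and 0.82 ± 0.13, and Abcg2 by 0.96 ± 0.14. Abcb4, which moves phosphatidylcholine into bile, fell by 0.47 ± 0.09, Abca8a by 1.23 ± 0.11 and Abcc6 by 0.70 ± 0.07. Among the carriers the prostaglandin carrier Slco2a1 fell by 1.27 ± 0.11, Slc22a8 by 0.85 ± 0.11, Slc22a7 by 0.78 ± 0.06 and the sodium-bile acid carrier Slc10a1 by 0.29 ± 0.07. Slc6a6, the taurine carrier, read -1.14, -0.95 and -0.63 in treated and 0.76, 1.07 and 1.29 in vehicle livers, the largest fall among 249 other solute carriers, of which 37 rose and 46 fell. The amino acid carriers Slc7a5, Slc3a2 and Slc7a11 rose by 1.41 ± 0.12, 0.81 ± 0.11 and 0.77 ± 0.14, Slc17a3 by 1.56 ± 0.13 and Slc48a1, a heme carrier, by 0.94 ± 0.07.

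Genes for glutathione and reducing power rose in part. Of 18 genes of glutathione synthesis and breakdown 5 rose: Gsr, glutathione reductase, at 1.06 ± 0.05, Gclm and Gclc, the subunits of the first synthetic enzyme, at 0.85 ± 0.08 and 0.81 ± 0.09, and the cystine carrier pair Slc7a11 and Slc3a2. Gsr signals were 0.49, 0.67 and 0.79 in treated and -0.52, -0.39 and -0.34 in vehicle livers. The 2 falls were Acy3, which deacetylates mercapturates, at -0.81 ± 0.12 and Anpep at -0.49 ± 0.07. Of 16 NADPH-supplying genes 6 rose and 1 fell. Me1 read 1.56, 1.70 and 1.90 against -0.34, -0.20 and 0.32 (1.84 ± 0.12), and the transketolase Tkt rose by 0.66 ± 0.09. Nqo1, which reduces quinones, read 1.24, 1.51 and 1.76 in treated and -0.95, -0.74 and -0.55 in vehicle livers. Of 31 genes that remove superoxide and peroxides 11 rose and 4 fell, led by Gpx2 at 1.37 ± 0.17, the thioredoxin reductase Txnrd1 at 0.87 ± 0.08 and the sulfiredoxin Srxn1 at 0.60 ± 0.06. Prdx4, a peroxiredoxin of the endoplasmic reticulum, fell by 0.38 ± 0.07. Among 11 regulators of NRF2 the transcripts of Keap1, its inhibitor, and Sqstm1, which takes KEAP1 to autophagy, rose by 0.37 ± 0.04 and 0.47 ± 0.05. Nfe2l2, which encodes NRF2, had a change of 0.03 ± 0.12 (adjusted p = 0.914).

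**Figure D2:**
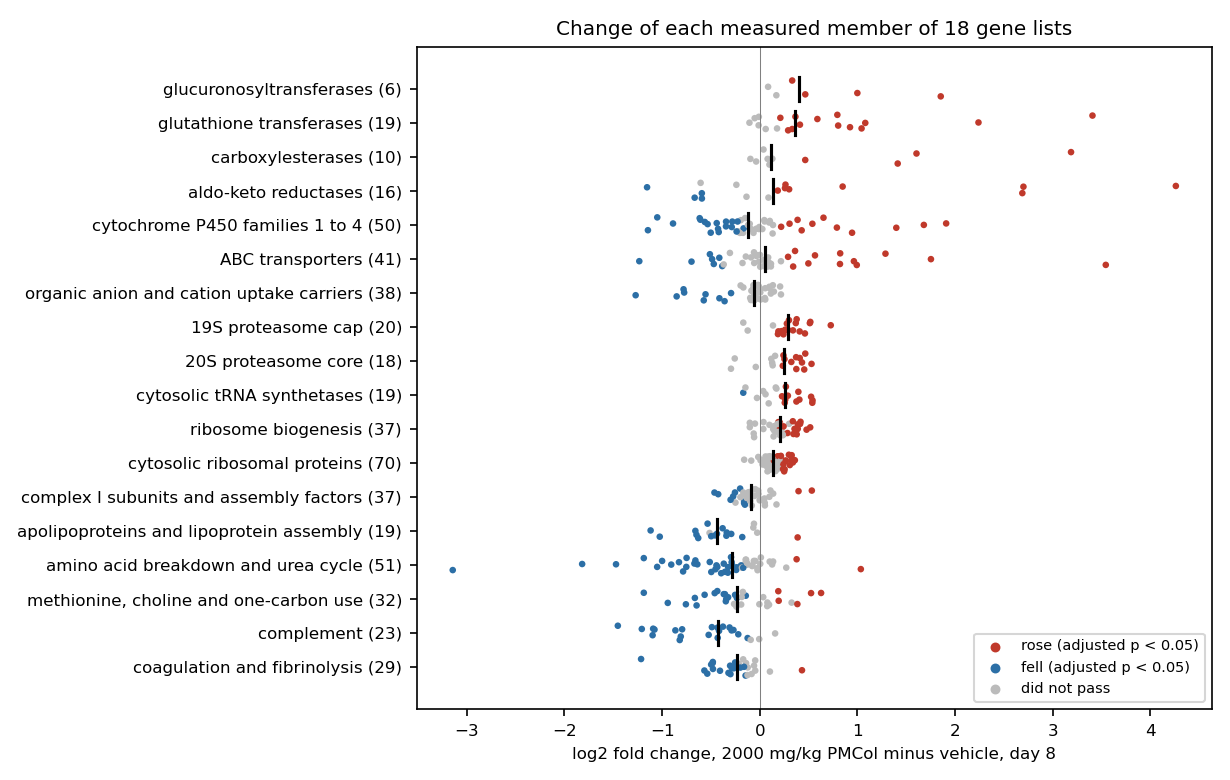
Log2 change at day 8 (x axis) of each measured member of 18 gene lists (y axis, number of members in brackets), red for genes that rose, blue for genes that fell and grey for the others, with the list median as a black bar. The 13 red points of the glutathione transferases have no blue point beside them, as have the 17 of the 19S proteasome cap, and the 20 blue points of complement have no red one.

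Genes of protein breakdown and folding that passed mostly rose, and the list medians were small. Of 18 subunits of the 20S proteasome core 11 rose and 0 fell, of 20 subunits of the 19S cap 17 rose and 0 fell, and the median changes were 0.25 and 0.28. Psmd14, the deubiquitinase of the cap, read 0.60, 0.66 and 0.79 in treated and -0.25, -0.03 and 0.08 in vehicle livers. Psma2 of the core rose by 0.53 ± 0.08 and Psmc4, an ATPase of the cap, by 0.51 ± 0.08. The immunoproteasome subunits Psmb8 and Psmb9 had values of -0.26 ± 0.13 and -0.29 ± 0.16 and did not pass. Of 73 heat shock and J proteins 17 rose, 4 fell and 52 did not pass, a share called of 28.8% beside 23.4% over all genes. The rises were led by the small heat shock protein Hspb1 at 1.01 ± 0.16. The mitochondrial chaperonin pair Hspd1 and Hspe1 rose by 0.49 ± 0.07 and 0.49 ± 0.05. Of 13 genes of the CCT chaperonin and prefoldin, which fold actin and tubulin, 5 rose and 0 fell, with Cct6a at 0.44 ± 0.07. In the endoplasmic reticulum list 10 of 29 rose and 4 fell. There the disulfide isomerase Pdia5 fell by 0.96 ± 0.15 and the unfolded protein response factor Xbp1 by 0.63 ± 0.09, while Sdf2l1 rose by 0.56 ± 0.11.

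Genes of amino acid supply and of translation rose more often than they fell. Of 30 genes of the ATF4 response, which amino acid shortage or endoplasmic reticulum stress can start, 17 rose and 1 fell, with a median of 0.50. Asns, asparagine synthetase, read 1.86, 2.47 and 3.08 in treated and -0.41, -0.18 and 0.41 in vehicle livers. Psat1 and Phgdh, of serine synthesis, rose by 1.89 ± 0.20 and 1.15 ± 0.13, but another Psat1 cluster had 0.26 ± 0.11 and did not pass. Ddit4 rose by 0.94 ± 0.16 and Trib3 by 0.79 ± 0.16. Atf3, Ddit3 and Chac1 had values of 0.92 ± 0.60, -0.27 ± 0.17 and -0.38 ± 0.18 and did not pass. Of 19 cytosolic tRNA synthetases 11 rose and 1 fell, with Farsb at 0.54 ± 0.13 and Nars1 at 0.53 ± 0.09 among the rises. The fall of Aars1 by 0.17 ± 0.05 did not pass without vehicle replicate 3 or treated replicate 1, 3 or 6. Of 43 initiation factors 16 rose and 1 fell, and the guanine exchange subunits Eif2b2 and Eif2b3 rose by 0.73 ± 0.10 and 0.59 ± 0.10. Of 37 ribosome biogenesis genes 17 rose and 0 fell, with the box C/D protein Nop56 at 0.52 ± 0.12. Of 70 cytosolic ribosomal proteins 24 rose and 0 fell, none by more than 0.36 in Rps24, and that count was 15 without treated replicate 6 and 14 at a threshold of 0.01. Of 67 mitochondrial ribosomal proteins 16 rose and 4 fell, with Mrpl49 at 0.66 ± 0.12.

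Lipid genes changed in separate groups. Of 8 acyl-CoA thioesterases 5 rose and 0 fell, with Acot2 at 0.81 ± 0.10 and Acot8 at 0.56 ± 0.08 beside Acot1. Cpt1b, the muscle form of the mitochondrial carnitine transferase, read 1.38, 2.19 and 2.83 in treated and -0.32, 0.03 and 0.43 in vehicle livers, while the liver form Cpt1a had a change of -0.12 ± 0.08 and did not pass. Of 27 genes of mitochondrial fatty acid oxidation and ketone bodies 8 rose and 4 fell, and of 18 of the peroxisomal pathway 7 rose and 5 fell. The peroxisomal rises were led by the transporter Abcd2 at 1.29 ± 0.13, the thiolase Acaa1b at 1.28 ± 0.13 and Pex11a, of peroxisome division, at 1.01 ± 0.14, and the bile acid intermediate oxidase Acox2 fell by 0.50 ± 0.08. Elovl6, which lengthens palmitate, read 1.60, 2.56 and 3.20 in treated and -0.30, 0.04 and 0.32 in vehicle livers, whereas Elovl5, which lengthens polyunsaturated acids, fell by 0.57 ± 0.09. The desaturase Scd fell by 1.09 ± 0.33 (adjusted p = 0.0182), a call that was lost with quantile normalization (adjusted p = 0.174) and without vehicle replicate 1 (adjusted p = 0.0587). Of 35 genes of triglyceride synthesis and lipid droplets 13 rose and 3 fell. The fatty acid carrier Cd36 read 0.91, 1.84 and 2.35 in treated and -0.35, -0.14 and 0.10 in vehicle livers, and Mgll, a monoacylglycerol lipase, and the droplet protein Plin3 rose by 0.71 ± 0.09 and 0.62 ± 0.13. In 9 of these 35 genes the vehicle animals of both days differed from each other.

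Lipoprotein and bile acid genes fell more often than they rose. Of 19 apolipoprotein and lipoprotein genes 14 fell, 11 without overlap, and 1 rose, with a median of -0.44. Lipc, hepatic lipase, read -0.99, -0.80 and -0.46 in treated and 0.30, 0.32 and 0.39 in vehicle livers. Apoa4 fell by 1.02 ± 0.23, Apoa5 by 0.66 ± 0.08 and Apoa2 by 0.63 ± 0.13, and Mttp, which loads lipid onto apolipoprotein B, rose by 0.39 ± 0.05. Of 27 bile acid genes 11 fell and 4 rose, the largest rise being that of Abcc3, which is also given above. Slc27a5, the bile acid-CoA ligase, fell by 1.23 ± 0.13 and Fgfr4, the receptor that restrains bile acid synthesis, by 0.80 ± 0.07. Cyp7a1, the rate-limiting enzyme of that synthesis, read -1.04, 0.25 and 0.48 in treated and -1.64, -0.68 and 0.48 in vehicle livers, groups that overlapped (0.55 ± 0.34, adjusted p = 0.301). Of 19 cholesterol synthesis genes 2 rose and 1 fell, with Dhcr7, its last step, at 0.88 ± 0.11.

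Lists of the respiratory chain and ATP synthase had small medians, with 18.2% (complex IV) to 29.7% (complex I) of members called. Genes of sugar metabolism moved in both directions. Of 37 complex I genes 9 fell and 2 rose, of 18 of complexes II and III 3 fell and 1 rose, of 22 of complex IV 2 fell and 2 rose and of 16 of the ATP synthase 3 fell and 1 rose, and no list median lay beyond -0.09. The synthase inhibitor Atp5if1 rose by 0.54 ± 0.06 and Ndufb7 fell by 0.46 ± 0.05. Of 41 genes of sugar metabolism 9 rose and 9 fell, a share called of 43.9% beside 23.4% over all genes. Pklr, the liver pyruvate kinase, fell by 0.84 ± 0.06 and the glycogen phosphorylase Pygl by 0.54 ± 0.07, and Aldoa rose by 0.68 ± 0.08.

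Amino acid breakdown genes mostly fell. Of 51 measured genes of amino acid breakdown and the urea cycle 31 fell, 21 without overlap, and 2 rose, with a median of -0.29. Sds, serine dehydratase, read -4.07, -3.24 and -2.23 in treated and -0.51, 0.08 and 0.26 in vehicle livers, a change of -3.14 ± 0.31 and a treated signal 8.84-fold lower. Oat, ornithine aminotransferase, read -1.86, -1.20 and -0.36 against 0.49, 0.65 and 0.83, and Prodh, of proline oxidation, -1.92, -1.35 and -0.68 against -0.15, 0.13 and 0.48. No treated animal reached a vehicle animal in Sds, Oat and Prodh, as their place among the largest falls required. Gldc of the glycine cleavage system fell by 1.05 ± 0.14, the histidase Hal by 1.00 ± 0.13 and Acmsd, of tryptophan breakdown, by 0.91 ± 0.15. Hibch, a valine pathway hydrolase, rose by 1.04 ± 0.09. Of 32 genes of methionine, choline and one-carbon use 16 fell and 5 rose, among them the glycine methyltransferase Gnmt at -1.19 ± 0.11, Nnmt at -0.94 ± 0.16, and Cbs and Cth of transsulfuration at -0.56 ± 0.08 and -0.66 ± 0.11, while the thymidylate synthase Tyms rose by 0.63 ± 0.11.

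Genes of secreted plasma proteins fell in most lists. Of 29 coagulation and fibrinolysis genes 18 fell, 15 without overlap, and 1 rose. Serpind1, heparin cofactor II, read -1.38, -1.02 and -0.50 in treated and 0.17, 0.27 and 0.34 in vehicle livers. F5, Proc and Fga fell by 0.48 ± 0.08, 0.48 ± 0.04 and 0.48 ± 0.07, and Tfpi, an inhibitor of the tissue factor pathway, rose by 0.43 ± 0.12. Of 36 serpins 13 fell and 0 rose, with the thyroxine-binding globulin Serpina7 at -1.01 ± 0.20. Of 28 acute phase proteins 20 fell and 0 rose. A2m, the rat's major acute phase inhibitor, read -1.74, -0.90 and -0.15 in treated and 0.16, 0.99 and 1.49 in vehicle livers, with vehicle replicates spread over more than 1 log2 unit. Itih1 fell by 0.76 ± 0.07 and the haptoglobin Hp by 0.25 ± 0.05, and Orm1 had 0.07 ± 0.10 and did not pass. Among 8 vitamin K cycle genes 4 rose and 3 fell, with Vkorc1l1 at 0.59 ± 0.07 and Ggcx, the gamma-carboxylase, at 0.32 ± 0.07. The largest rise in that list, 2.24, is that of Nqo1, which is also given above. Of 17 genes of vitamin E handling 12 fell and 1 rose, among them Sec14l2, a tocopherol-associated protein, at -0.39 ± 0.07, while the alpha-tocopherol transfer protein Ttpa had -0.10 ± 0.05 and did not pass. The list shares members with the P450 families: its largest fall, -1.15, is that of Cyp3a9, and its rise, 0.79, has the value of Cyp3a23-3a1. Of 32 iron genes 6 rose and 3 fell, with the heme oxygenase Hmox1 at 1.14 ± 0.18, the transferrin receptor Tfrc at 0.85 ± 0.17 and Alad, of heme synthesis, at -0.47 ± 0.05.

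Complement genes and markers of liver macrophages mostly fell. Of 23 complement genes 20 fell, 17 without overlap, and 0 rose, with a median of -0.43. At day 29, 11 fell with a median of -0.22, and 6 of the 23 differed between the vehicle groups of both days, against 3.14% of all genes. C1s, a hepatocyte-expressed protease of the classical pathway, read -2.27, -1.30 and -0.61 in treated and -0.14, 0.14 and 0.44 in vehicle livers, and C6, of the membrane attack complex, fell by 1.21 ± 0.31. C1qa, C1qb and C1qc, which Kupffer cells express, fell by 1.08 ± 0.19, 1.10 ± 0.25 and 0.82 ± 0.17. Of 24 Kupffer cell and macrophage markers 19 fell, 15 without overlap, and 1, Cd14, rose by 0.54 ± 0.13. The count of falls was 12 at a threshold of 0.01, and 5 when only clusters with stored signals of 8 or more were tested, which hold 6 of the 24. The mean over these 24 markers ran from -0.50 to 0.05 in treated livers and from 0.27 to 0.96 in vehicle livers of day 8. In vehicle livers of day 29 the mean was -0.16, and 16 of the 24 markers differed between the vehicle groups. Clec4f, a lectin of Kupffer cells, read -0.91, -0.06 and 0.04 in treated and 0.43, 0.97 and 1.33 in vehicle livers, and Csf1r fell by 0.98 ± 0.27. In bulk tissue fewer cells of a type and less RNA per cell cannot be told apart. The lysosomal protease Ctsh at -0.59 ± 0.08 and the interferon factor Irf8 at -0.62 ± 0.09 fell with these markers, whose part in those falls was not tested.

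A smaller share of the markers of other cell types was called. Of 11 liver endothelial markers 2 fell and 0 rose, and 6 of the 11 differed between the vehicle groups of both days. Of 23 stellate cell and matrix markers 6 fell and 1 rose, with Pdgfrb, a receptor of stellate cells, at -0.57 ± 0.09. The rise was that of the proteoglycan Dcn at 0.69 ± 0.21, which did not pass without vehicle replicate 5 or treated replicate 4. Of 20 T and NK cell markers 7 fell and 0 rose, with a median of -0.13, and the count of falls was 3 without treated replicate 4 and 2 at a threshold of 0.01. The largest fall in that list was that of Cd4 at -0.87 ± 0.25, and which cells it came from was not tested. Of 6 B cell and plasma cell markers 3 fell (6 when only the animals compared were fitted), and of 17 neutrophil and mast cell markers 1 fell. Of 12 bile duct and progenitor markers 2 rose and 2 fell, with Epcam at 0.82 ± 0.11 and the water channel Aqp1 at -0.57 ± 0.12. Of 10 erythroid markers 2 fell and Tfrc rose, and 0 fell without vehicle replicate 6 or without treated replicate 1 or 3. Of 41 interferon response genes 4 rose and 10 fell, and 20 fell without treated replicate 3. The list mean ran from -0.69 to 0.21 in treated livers and from -0.23 to 0.25 in vehicle livers, ranges that overlapped.

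**Figure D3:**
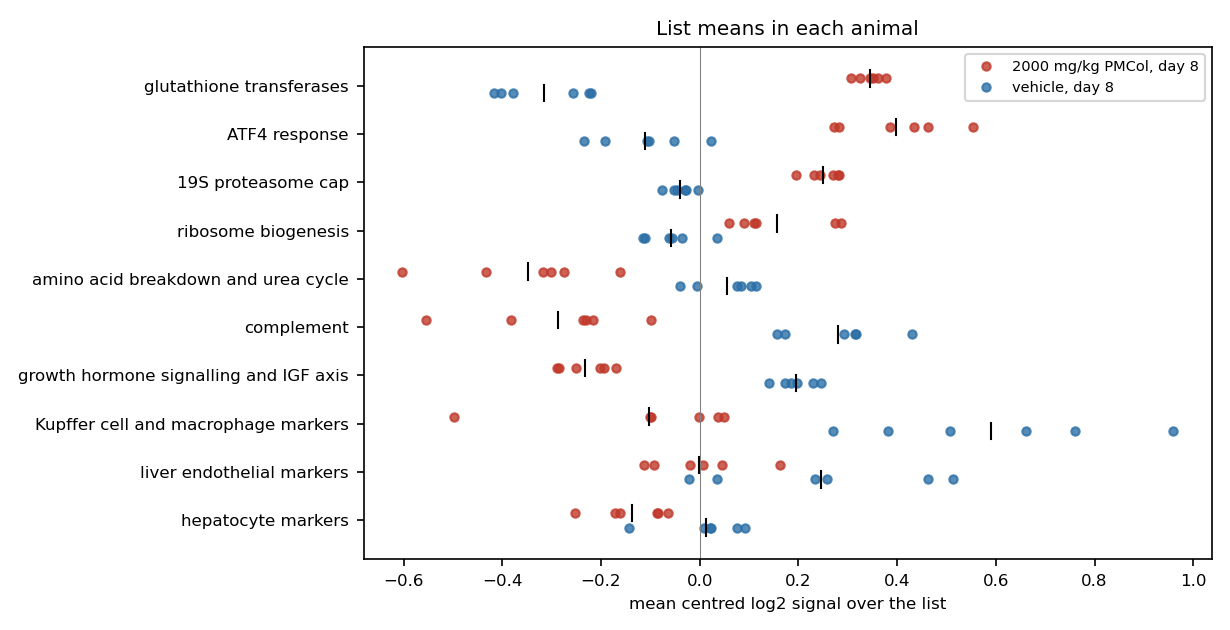
Mean centred log2 signal over each of 10 gene lists (x axis) in each treated (red) and vehicle (blue) liver of day 8, with the group mean as a black bar. Red and blue points are apart for 8 lists, while they overlap for the hepatocyte and endothelial markers. The macrophage markers show the widest spread among vehicle animals, from 0.27 to 0.96.

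Growth hormone and sex-dependent genes mostly fell. Of 24 genes of growth hormone signalling and the IGF axis 13 fell and 1 rose, with a median of -0.30. Socs2, which STAT5 induces and which damps the receptor, read -1.43, -0.48 and -0.05 in treated and 0.68, 1.47 and 1.91 in vehicle livers. Cish, whose promoter is printed above, read -0.71, -0.32 and 0.00 against 0.67, 1.79 and 1.94, and Igfbp2, an IGF-binding protein, -1.35, -1.17 and -0.66 against 0.49, 0.75 and 1.13. The groups did not overlap in these 3 genes, as their place among the largest falls required. Stat5b fell by 0.54 ± 0.07, Igf1 by 0.50 ± 0.05, its partner Igfals by 0.73 ± 0.07 and the receptor Ghr by 0.47 ± 0.10. Prlr, the prolactin receptor, rose by 1.75 ± 0.25. Of 22 sex-dependent hepatocyte genes 14 fell and 3 rose, and male- and female-dominant genes were not counted apart. The largest rise in that list, 2.69, has the value of Akr1b7, whose signals are given above. The male-dominant urinary protein gene Mup5 read -3.47, -2.92 and -2.14 in treated and -0.04, 0.23 and 0.59 in vehicle livers, and Cyp2c11, the male P450, -1.94, -0.98 and -0.29 against -0.05, 0.02 and 0.14. Cyp2c12, the female P450, had a change of -0.19 ± 0.18 and did not pass, and the female-dominant Sult2a1 is given above among the falls.

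Liver-enriched transcription factors and clock genes were called at about the share of all genes, 23.4%, and nuclear receptors at a higher share, 42.9%. Of 21 liver-enriched factors 5 fell and 0 rose. Onecut1 fell by 1.44 ± 0.30, the pioneer factors Foxa1, Foxa3 and Foxa2 by 0.78 ± 0.10, 0.77 ± 0.16 and 0.70 ± 0.16, and Hnf4a by 0.14 ± 0.04, whose call was lost without vehicle replicate 3 or 4 or treated replicate 3 or 4. Onecut1 signals were -0.98, -0.57 and 0.56 in treated and -0.02, 1.21 and 1.54 in vehicle livers, ranges that overlapped. Of 35 nuclear receptors 5 rose and 10 fell, with Ppara at 0.42 ± 0.12, the thyroid hormone receptor Thra at -0.38 ± 0.06 and the LXR gene Nr1h3 at -0.34 ± 0.07. The PXR gene Nr1i2 fell by 0.20 ± 0.06. Of 16 clock genes 2 rose and 2 fell. Npas2 read -1.24, -0.92 and -0.70 in treated and 0.53, 0.57 and 0.87 in vehicle livers, Bmal1 fell by 0.61 ± 0.13 and Per3 rose by 0.89 ± 0.18. The labels used here give no hour of death.

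Genes of growth signals, arrest and death moved in both directions. Of 28 immediate early genes 7 fell and 1 rose. Egr1 read -2.19, -1.48 and -0.48 in treated and 0.00, 0.69 and 1.05 in vehicle livers, and Gadd45b, a stress-induced growth arrest gene, 0.66, 0.90 and 1.30 against -1.54, -0.57 and 0.13. Dusp6, the phosphatase that ERK induces against itself, fell by 1.59 ± 0.20, and Spred1 and Spred2, which restrain RAS signalling, by 0.41 ± 0.07 and 0.40 ± 0.08. Ccnd1, cyclin D1, read -1.30, -0.91 and -0.32 in treated and 0.21, 0.61 and 0.94 in vehicle livers, while 3 of 39 cell cycle and replication genes rose and 5 fell in all. Of 22 p53 targets and arrest genes 10 rose and 1 fell, with Plk3 at 0.97 ± 0.16, Plk2 at 0.86 ± 0.10, Fas at 0.54 ± 0.08, Rrm2b at 0.51 ± 0.10 and Mdm2 at 0.34 ± 0.10. Gadd45b is counted in this list as well as among the immediate early genes. Of 31 apoptosis regulators 6 rose and 9 fell, with Casp4 at 1.19 ± 0.17 and the BH3 protein Bcl2l11 at 0.87 ± 0.16 among the rises and Bmf at -0.72 ± 0.08 and Birc2 at -0.51 ± 0.11 among the falls. Of 42 cytoskeleton and junction genes 10 rose and 9 fell, with the tubulins Tuba1c and Tubb4b at 0.91 ± 0.12 and 0.61 ± 0.07 and the keratin Krt8 at 0.59 ± 0.11.

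The effect at day 8 was tested against that at day 29, groups that share no animals. The difference passed the test in 132 of 14324 genes (0.922%), 70 of them called at day 8. Of the 3347 genes called at day 8, 2092 were called at day 29, 62.5% of the day 8 calls and 56.1% of the day 29 calls (26.0% of genes were called at day 29), 2080 of them in the same direction. Of the 157 genes with a 2-fold change at day 8, 142 were also called at day 29 and 6 differed between days. In 49 of the 132 genes, and in 22 of the 157, the vehicle groups differed between days as well.

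The day 8 effect lay above that of day 29 in the next genes. Gadd45b rose by 1.69 ± 0.29 at day 8 and had -0.47 ± 0.30 at day 29, where it did not pass, a difference of 2.16 ± 0.42 (adjusted p = 0.0144). Aqp3, a water and glycerol channel, rose by 1.47 ± 0.22 at day 8 and had 0.13 ± 0.23 at day 29, where it did not pass (1.34 ± 0.31, adjusted p = 0.0373). Apold1 rose by 0.82 ± 0.22 at day 8 and fell by 0.66 ± 0.23 at day 29. Igfbp1, an insulin-suppressed IGF-binding protein, had 0.05 ± 0.25 at day 8 and fell by 2.13 ± 0.26 at day 29 (2.18 ± 0.37, adjusted p = 0.00458). Igfbp3 fell by 0.49 ± 0.11 at day 8 and by 1.53 ± 0.12 at day 29, and its vehicle signal differed between the days by -0.50 (adjusted p = 0.0191).

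In other genes the day 8 effect lay below that of day 29. Abcc3 rose by 3.54 ± 0.13 at day 8 and by 4.40 ± 0.14 at day 29 (-0.86 ± 0.19, adjusted p = 0.0307), and after quantile normalization the difference was -0.42 (adjusted p = 0.519). The vehicle signal of Abcc3 was 0.95 higher at day 8 than at day 29 (adjusted p = 0.000259). Ces2e rose by 1.41 ± 0.12 and 2.62 ± 0.12, but its vehicle signal was 1.22 higher at day 8 than at day 29 (adjusted p = 1.6e-06). Nat8, an N-acetyltransferase of mercapturate formation, read -0.82, -0.68 and -0.33 in treated and -0.05, 0.13 and 0.30 in vehicle livers of day 8, a fall of 0.75 ± 0.14, and rose by 0.41 ± 0.14 at day 29 (-1.16 ± 0.20, adjusted p = 0.00475). Dbp, a clock output factor, had 0.20 ± 0.19 at day 8 and rose by 1.40 ± 0.20 at day 29. Socs3 had -0.27 ± 0.15 at day 8 and rose by 0.73 ± 0.16 at day 29. Mmd rose by 0.64 ± 0.14 at day 8 and by 1.67 ± 0.15 at day 29. Folr2, a folate receptor of macrophages, fell by 0.65 ± 0.16 at day 8 and had 0.36 ± 0.17 at day 29, with vehicle signals 0.88 higher at day 8. Fits that left out 1 animal lost the call of the difference for Aqp3 in 14 of 23, for Folr2 in 15, for Dbp in 9, for Abcc3 in 6, for Socs3 in 3 and for Apold1 in 1, and kept it in all 23 for Gadd45b, Igfbp1, Igfbp3, Ces2e, Nat8 and Mmd. After quantile normalization the differences of Apold1, Dbp and Socs3 did not pass either, with adjusted p of 0.0614, 0.0818 and 0.0518. Ces2a had a difference of -0.58 ± 0.10 (adjusted p = 0.00458) that did not pass after quantile normalization (-0.47, adjusted p = 0.137), and its vehicle signal was 0.51 higher at day 8 than at day 29.

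Counts at both days are given for 6 lists. Of the 24 macrophage markers 19 fell at day 8, while at day 29 0 fell and 2 rose, and the difference passed in 1 of them. Of the 23 stellate cell and matrix markers 6 fell at day 8 and 19 at day 29, with medians of -0.17 and -0.57, and the difference passed in 3 of them. Of the 28 immediate early genes 7 fell at day 8 and 13 at day 29, and the difference passed in 2. Of the 19 cholesterol synthesis genes 2 rose at day 8 and 9 at day 29, and the difference passed in 1. For the 20 subunits of the 19S cap, 17 rose at day 8 and 12 at day 29, and for the 51 amino acid breakdown genes 31 fell at day 8 and 27 at day 29, with a difference that passed in 0 and 2 of them.

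**Figure D4:**
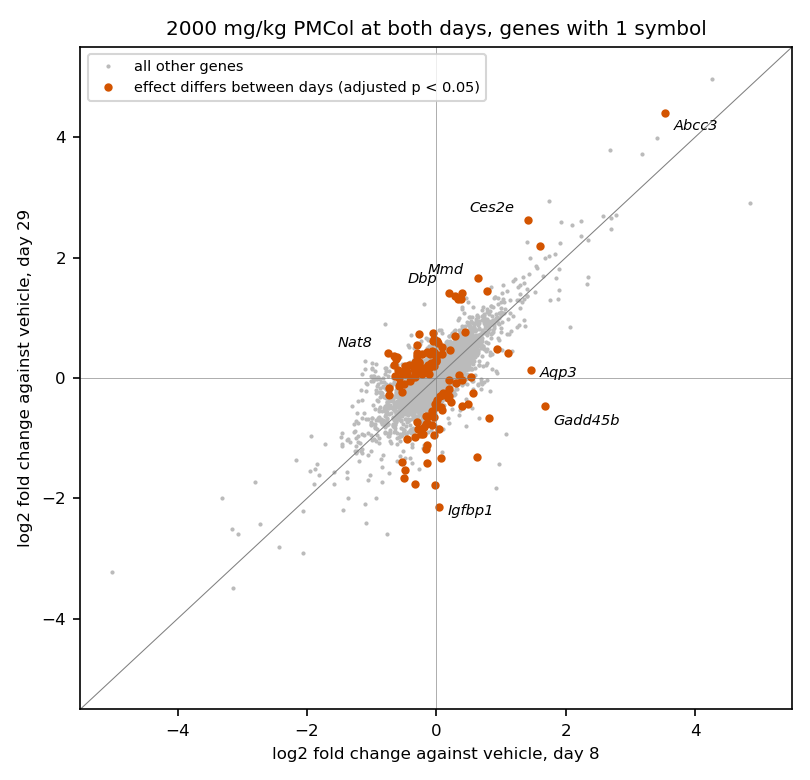
Log2 change against vehicle of the same day for 14324 genes at day 8 (x axis) and day 29 (y axis), with the line of equal change. The 132 orange points are genes whose effect differed between days. Gadd45b and Igfbp1 lie far below the line with differences of 2.16 and 2.18, and Nat8 and Dbp lie above it.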

How the data were processed

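The authors deposited 1 table of log2 signals for 27342 transcript clusters and 29 animals, in which the median of every cluster is exactly 0. PLIER and MAS5 are named in the submitters' processing notes without roles or versions, and the normalization between arrays is not given in the sources used here. Where the rounding of the stored values could be rebuilt, 7791 clusters had stored log2 signals of 8 or more in all animals. An offset added before the log would make the changes of dim genes too small. Batches were not tested, since the labels used here name none.

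In the platform annotation 15097 clusters carry 1 symbol, covering 14324 genes, 323 carry several, and 11922 were unnamed. For a gene with several clusters, a cluster with stored signals of 8 or more came first, then the lowest cluster number. One limma fit (version 3.58.1, R 4.3.3) of 5 groups over all 29 animals tested the differences of group means, with empirical Bayes moderation and Benjamini-Hochberg adjustment over all clusters (two-sided, threshold 0.05). On simulated data of 27342 clusters this recovered 96% of changes of 0.5 and 100% of changes of 1 or 2 on the log2 scale at day 8. The simulated noise was normal, of the fitted spread and independent between clusters. Only a small part of the clusters was changed, far fewer than were called in the data. These percentages are therefore not the sensitivity of the real comparison. The number of arrays limits the precision.

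Named are the 25 largest rises and falls without overlap, up to 8 called members of each of 79 gene lists in each direction, the members that define a list, and the 10 largest differences between days in each direction. The text names a part of these. The animals, the comparison, the lists and the rule were chosen with earlier results of these data known. From the families 9 symbols that share only a prefix were left out. The alternatives were quantile normalization, centring each array, only the animals compared, trend and robust settings, array weights, the replicate number as a block, only clusters with 1 symbol or with bright signals, a threshold of 0.01 and leaving out each animal. Plots were drawn with matplotlib 3.10.9.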

Additional observations from a re-analysis of the deposited data

Results flagged for a closer look

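In 486 groups of 6 animals over the genes named, 23 held an animal that stood apart from the others of its group, where chance gives about 1 in 20 groups. Treated replicate 4 was the lowest treated animal in the macrophage genes C1qa (-0.81, next -0.10), C1qc (-0.72, next -0.14) and Clec4f (-0.91, next -0.26), and in the immunoproteasome gene Psmb8 (-1.06, next -0.27). Treated replicate 2 was the highest treated animal in Nox4 (-1.91, next -2.84), Scd (0.27, next -0.94) and Cyp2d1 (-0.13, next -0.54), and the lowest in Abcg2 (0.51). Other treated animals that stood low were replicate 1 in Akr7a3 (0.92) and Txnrd1 (0.23), replicate 3 in Acot8 (0.06) and Aqp1 (-0.39), replicate 5 in Igfbp3 (-0.81) and replicate 6 in Cyp2b2 (0.23), and replicate 6 stood high in Slc7a5 (1.77). Among vehicle animals, replicate 1 stood low in Tuba1c (-0.40), replicate 2 in Bcl2l11 (-1.17), replicate 4 in Krt8 (-0.76) and replicate 5 in Cyp2b1 (-1.86) and Rrm2b (-0.46). Vehicle replicate 3 stood high in Pygl (0.30), replicate 4 in Dab1 (0.87) and replicate 6 in Cyp2d4 (0.38). These values are centred log2 signals.

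The effect differed between day 8 and day 29 by the test of the difference itself in 14 of the genes named. The differences, day 8 minus day 29 on the log2 scale, were 2.18 for Igfbp1, 2.16 for Gadd45b, 1.47 for Apold1, 1.34 for Aqp3 and 1.04 for Igfbp3. They were -0.57 for Igfals, -0.58 for Ces2a, -0.86 for Abcc3, -1.0 for Folr2, -1.0 for Socs3, -1.03 for Mmd, -1.16 for Nat8, -1.21 for Dbp and -1.21 for Ces2e. After quantile normalization the difference of Ces2a was -0.47 (adjusted p = 0.137), and those of Abcc3, Apold1, Dbp and Socs3 did not pass either, so 9 of the 14 did.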

How the results depend on the processing

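The count of 5096 clusters called at day 8 stayed within 1.5 times under 7 of 9 alternatives that kept all animals, and was 3244 at a threshold of 0.01 and 3249 of the 7791 clusters with bright signals, where fewer clusters were tested. With the replicate number as a block (replicate block) 5008 clusters were called at day 8, 224 for the difference between days and 799 between the vehicle groups. The deviations of same-numbered treated and vehicle animals of day 8 correlated from -0.099 to 0.16. Mean correlations with the other numbers ran from -0.037 to 0.020, and 2 of 6 animals correlated best with their own number. So few and weak correlations cannot tell whether the numbers pair the samples, and the main fit used no pairing. Leaving out 1 animal gave 4400 to 4802 clusters at day 8. The 212 clusters that differed between days became 102 with quantile normalization, 673 with array weights, 28 at a threshold of 0.01 and 76 to 563 without 1 animal, the lowest without treated day 8 replicate 1 and the highest without vehicle day 29 replicate 2. The 746 clusters that differed between the vehicle groups became 254 to 2141 without 1 animal, with the highest count again without vehicle day 29 replicate 2. The cause was not tested. Of 228 called genes named, 224 kept the call without any 1 animal. Of 1422 list counts under alternatives that kept all animals 116 moved by over 1.5 times, 45 with only bright clusters, where fewer members were tested, 35 at a threshold of 0.01, 13 with array weights, 13 with only the animals compared, 5 with quantile normalization and 5 under the others. Aars1, Cd4, Dcn, Hnf4a, Mdm2, Nr1i2, Ppara and Scd were not called at a threshold of 0.01. Chac1 and Tf passed without vehicle replicate 1, and Ddit3 passed when only the animals compared were fitted. Uncalled Igfbp1 ran from -0.15 to 0.20 and Nfe2l2 from -0.020 to 0.067 without 1 animal, so their signs turned. Which changes of dim genes are too small because of an offset cannot be read from the table.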
